A study of Mus musculus with 29 samples.

Results

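The cytosolic ribosome is built from ribosomal RNA and a fixed set of proteins, and the genes of those proteins were followed in mice with the leukaemia fusion MLL-ENL-ERtm, in spleen and in bone marrow. The members were all probe sets whose single gene symbol starts with Rpl or Rps and a digit, or is Rplp0, Rplp1, Rplp2 or Rpsa, without the S6 kinases, pseudogenes and Rik symbols. That rule gave 48 genes of 12394 measured with a single symbol, held by 100 of the 22690 probe sets on the array, and each gene was read in each tissue from its brightest such probe set. A probe set is a group of short probes for one transcript, and a level is its deposited log2 value. The 48 genes were 20 of the large subunit, 20 of the small subunit with Rpsa, the stalk proteins Rplp0 and Rplp2, and 6 relatives of ribosomal proteins (Rpl3l, Rpl7l1, Rpl22l1, Rpl39l, Rps4l and Rps27l). No probe set carried Rplp1 as its only symbol.

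The fusion joins the MLL-ENL oncoprotein to a mutated hormone-binding domain of the oestrogen receptor, so that its activity depends on tamoxifen, and all mice, wild type included, ate chow with 300 mg/kg tamoxifen. MLL-ENL-ERtm marrow was sampled in a proliferation state after 7 months (n = 4), in transition after 7 to 8 months (n = 4) and in senescence after 8 months (n = 3), beside wild-type marrow after 7 or 8 months (n = 4). MLL-ENL-ERtm spleen was sampled at an early stage after 7 months (n = 3), at progression after 9 or 10 months (n = 3) and at the terminal stage after 19, 21 and 23 months (n = 3), beside wild-type spleen (n = 5) after 8, 9, 11, 11 and 24 months. Only wild-type spleen 1, at 24 months, had been treated as long as the terminal mice. The labels call the samples of a group biological replicates and name no strain, sex or age at the start, so a p-value here speaks of these samples only. The test behind it draws each gene's spread between samples towards that of all genes, so it does not rest on the gene's own spread alone.

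Ribosomal protein mRNAs are among the most abundant in dividing cells, and most of the proteins they encode are needed in equal numbers, so the genes are usually expressed together. Most of these mRNAs begin with an unbroken run of pyrimidines at the cap, the 5′ terminal oligopyrimidine (TOP) sequence, through which mTOR signalling sets how strongly they are translated. In blood formation, loss of one copy of a ribosomal protein gene such as Rps19, Rps24 or Rpl11 impairs red cell production in Diamond-Blackfan anaemia, and unassembled Rpl11 binds Mdm2 and so stabilises p53.

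Start regions of the members that passed the test in a spleen comparison are shown because a pyrimidine run at the start is a known feature of this gene family. RefSeq promoter windows (build GRCm38.p6) were found for 42 of the 48 members. Each line below gives 30 bases, 15 before the annotated start and 15 from it onwards, read 5′ to 3′ on the strand of the gene, with a run of at least 6 consecutive C or T beginning within 10 bases of the start in capitals.
Rps18 (chr17:33955651-33955680, minus strand): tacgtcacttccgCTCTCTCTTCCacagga
Rpl13a (chr7:45128731-45128760, minus strand): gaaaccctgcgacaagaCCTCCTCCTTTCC
Rpl22l1 (chr3:28805493-28805522, plus strand): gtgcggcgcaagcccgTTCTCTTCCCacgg
Rpl27a (chr7:109519180-109519209, plus strand): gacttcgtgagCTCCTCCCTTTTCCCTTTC
Rps24 (chr14:24490663-24490692, plus strand): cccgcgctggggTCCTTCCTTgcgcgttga
Rps19 (chr7:24884898-24884927, plus strand): gagggagcggggtgtggagggCTCTCCCac
Rpl11 (chr4:136053379-136053408, minus strand): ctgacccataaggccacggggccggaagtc
Rpl37 (chr15:5116598-5116627, plus strand): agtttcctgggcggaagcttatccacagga
Rpl7l1 (chr17:46782642-46782671, minus strand): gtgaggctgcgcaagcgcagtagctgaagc
Rps7 (chr12:28635939-28635968, minus strand): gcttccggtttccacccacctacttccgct
Of the 42 matched members, 21 (50.0%) held such a run at 1 or more starts, against 7089 of 27025 genes (26.2%) with a window in the same table. Among the 10 matched members that passed the test in a spleen comparison below, 6 (60.0%) held a run. The windows of Rpl11, Rpl37, Rpl7l1 and Rps7 showed none, and Rps24 and Rps19 each had a run at 1 of their annotated starts only, the one shown. No window was matched for Rps20 and Rps4l. The match describes these letters at the annotated starts and was searched on the strand of the gene alone. A run that crosses the start but begins more than 10 bases before it was not counted, as in Rpl7a.

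Most probe sets of ribosomal protein genes gave a strong signal. The median level over the 48 members was 14.16 in marrow and 13.76 in spleen, against 8.79 and 7.38 over all 12394 genes. In marrow 34 members lay at 13 or more among 614 such genes, and in spleen 32 members lay there among 92, while the highest level on any array was 15.38 in marrow and 15.09 in spleen. In each tissue 12 members lay under 11 (Rpl12, Rpl14, Rpl27a, Rpl37, Rpl39, Rps6, Rps25, Rps27 and the relatives Rpl3l, Rpl39l, Rps4l and Rpl7l1). The brightness of a probe set depends on its probes as well as on the mRNA, so these levels give no order of mRNA amounts between genes, and the tissues were normalized apart, so levels were not compared between tissues. The residual SD within groups had a median of 0.0714 over the members in spleen and 0.208 over all genes, and in marrow it was 0.183 and 0.247. Over genes at 13 or more it was 0.0535 for the members and 0.097 for all in spleen, and 0.164 and 0.241 in marrow. The dim relatives Rps4l and Rpl39l stood apart with 0.55 and 0.54 in spleen. Whether a place near the top of the scale lowers the spread of the bright members was not tested. Because the test draws each spread towards that of all genes, the SE of a member with a small SD exceeds what its own spread gives.

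Arrays differed in ways that touch these values. RNA quality, read as the level of the 3′ Gapdh probes minus that of the 5′ probes, spanned 1.18 to 2.06 over the marrow arrays and −0.0027 to 1.07 over the spleen arrays. High Xist, a mark of female cells, was found on all 8 proliferation and transition marrow arrays, on 1 senescence and on 2 wild-type marrow arrays. Among the spleen arrays 1 early, no progression, all 3 terminal and 2 wild-type ones had it. Proliferation marrow 1 carried adipocyte and muscle transcripts, and wild-type spleen 3 and early spleen 1 carried pancreas transcripts. Counts that depend on these arrays are given beside the results.

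In bone marrow, no ribosomal protein gene passed the test against wild type in any of the 3 states. The call rule was an adjusted p under 0.05 from limma with Benjamini-Hochberg adjustment over all genes, and 0 of 48 members passed it in proliferation, transition and senescence, where 0.282%, 0.42% and 0.0484% of all genes did. At an unadjusted p under 0.05 the members numbered 1, 4 and 1 of 48, and all genes 1227, 1296 and 788 of 12394. The median change over the members was 0.061 in proliferation, 0.086 in transition and −0.0046 in senescence, against 0.0087, 0.038 and 0.0023 over all genes, and the median in proliferation turned to −0.0072 when the arrays were quantile normalized again. All states share the same 4 wild-type arrays. With the 11 fusion arrays pooled, 0 of 48 members passed, against 0.662% of genes. An unadjusted p under 0.05 was found for 3 members and for 1548 of 12394 genes. Between states no member and 0% of genes passed in transition against proliferation, 0% in senescence against transition and 0% in senescence against proliferation, with 0, 2 and 1 members at an unadjusted p under 0.05. Of all 12394 genes 266, 380 and 125 lay under it in turn. The standard error of a member's difference from wild type had a median of 0.138 in proliferation and transition.

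Rps4l, Rps15 and Rps25 were among the members nearest to a call in marrow. Rps4l, a relative of the small subunit protein Rps4x, read 5.92, 6.68, 5.89 and 5.98 in transition and 7.13, 5.91, 6.29 and 6.84 in proliferation marrow. It read 7.31, 8.11, 7.12 and 7.35 in wild-type marrow and 8.29, 7.43 and 6.52 in senescence. All 4 transition values lay below all 4 wild-type values, as for 1.9% of all genes, while those of senescence overlapped them. The differences from wild type were −1.35 ± 0.35 (SE, adjusted p = 0.155) in transition and −0.93 ± 0.35 (adjusted p = 0.36) in proliferation. Rps15, a protein of the head of the small subunit, read 12.47, 13.08, 13.60 and 13.02 in transition and 12.08, 12.93, 12.85 and 11.99 in wild-type marrow. These groups overlapped, and the difference was 0.58 ± 0.24 (adjusted p = 0.423). Rps25, a small subunit protein used by viral internal ribosome entry sites, read 9.35, 10.07 and 9.96 in senescence and 10.06, 10.04, 10.73 and 10.58 in wild-type marrow, with overlap and a difference of −0.56 ± 0.24 (adjusted p = 0.754).

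The median level over the members was also taken on each array. In marrow it was 14.05 to 14.23 in proliferation, 14.08 to 14.48 in transition, 13.94 to 14.28 in senescence and 13.89 to 14.24 in wild type, and the groups overlapped. In spleen it was 13.72 to 13.76 at the early stage, 13.74 to 13.79 at progression, 13.74 to 13.77 at the terminal stage and 13.82 to 13.89 in wild type, so that all 9 fusion arrays lay below all 5 wild-type arrays. After the spleen arrays were quantile normalized again the ranges were 13.75 to 13.79, 13.75 to 13.82, 13.75 to 13.79 and 13.76 to 13.82, and they overlapped.

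**Figure D1:**
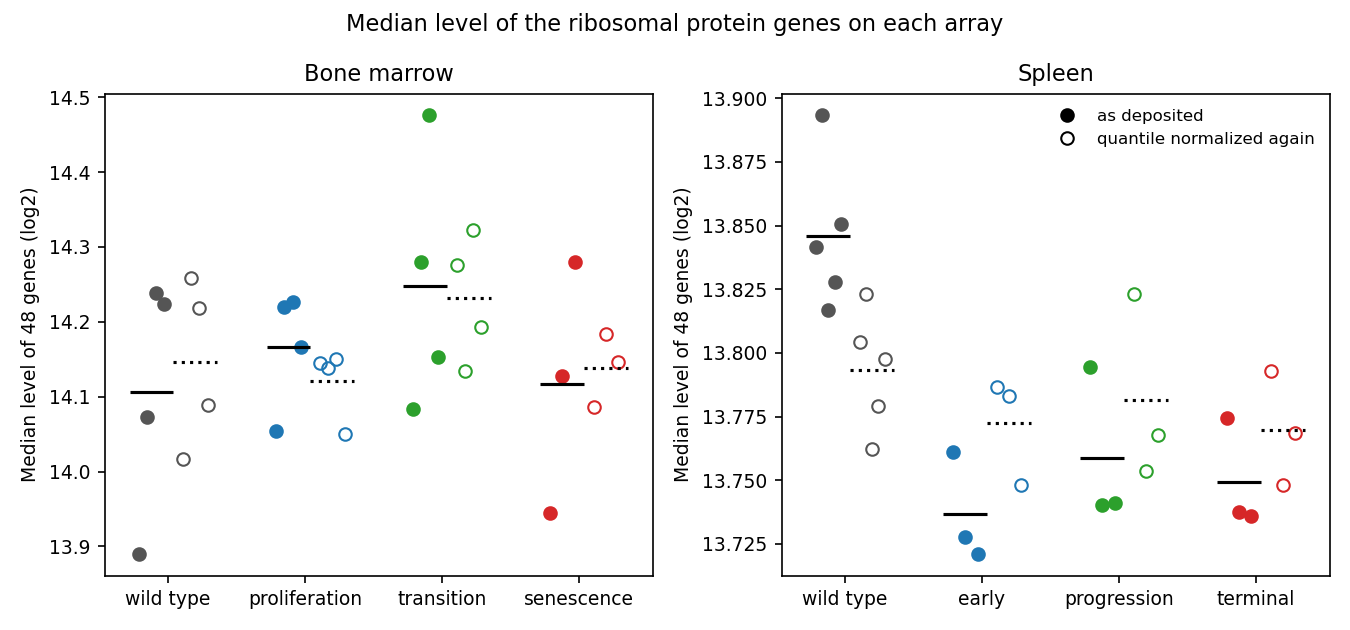
Median log2 level of the 48 ribosomal protein genes on each array by group, in bone marrow (left) and spleen (right), with filled points for deposited values, open points after a second quantile normalization, and lines at the group means. Deposited spleen values of the fusion groups (13.72 to 13.79) all lie below those of wild type (13.82 to 13.89), which is not so after the second normalization or in marrow.

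In spleen, 8 of 48 ribosomal protein genes, from both subunits, were slightly lower in the fusion mice taken as a whole, and 0 were higher. This was 16.7% of the members over 9 fusion and 5 wild-type arrays, while 32.5% of all genes passed in either direction and 16.4% passed as lower, so the share of members that fell was close to that of all genes. The side of 0 differed more than the calls, with 41 of 48 members (85.4%) below 0 against 43.8% of genes and a median change of −0.11 against 0.042. After a second quantile normalization 36 members lay below 0, and 38 with arrays centred on their medians. The middle 50% of the members lay between −0.18 and −0.043. An unadjusted p under 0.05 was found for 15 of 48 members and for 5255 of 12394 genes. In this bulk tissue fewer cells of a type and less RNA per cell cannot be told apart.

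By role, 2 of the 20 large subunit genes, 5 of the 20 small subunit genes, 1 of the 6 relatives and neither stalk gene were lower. In the large subunit 18 of 20 and in the small subunit 18 of 20 changes lay below 0, with medians of −0.11 and −0.14, and the stalk genes Rplp0 and Rplp2 changed by −0.054 ± 0.065 and −0.07 ± 0.062. Only 7 members lay above 0, among them Rpsa, a small subunit protein also known as the laminin receptor, at 0.07 ± 0.078, Rps27l, a p53-induced relative of Rps27, at 0.13 ± 0.088, and Rpl37 at 0.23 ± 0.10.

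Rpl22l1, a relative of Rpl22 that can take its place in the ribosome, fell most among the members called. It read 12.42, 12.34 and 12.50 at the early stage, 12.48, 12.48 and 12.54 at progression and 12.20, 12.31 and 12.41 at the terminal stage. In wild-type spleen it read 12.37, 12.94, 12.97, 12.81 and 12.99, and only the first of these, from the mouse treated for 24 months, lay within the range of the fusion arrays. The pooled difference was −0.41 ± 0.10 (adjusted p = 0.00681), and −0.52 (adjusted p = 0.000177) without that array. Rpl22 itself, also a large subunit protein, changed by −0.088 ± 0.085 (adjusted p = 0.457).

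Among small subunit proteins, Rps24 read 14.07, 14.09 and 14.07 at the early stage, 14.08, 14.17 and 14.14 at progression, 14.01, 13.98 and 14.07 at the terminal stage and 14.19, 14.29, 14.35, 14.27 and 14.35 in wild-type spleen. Rps19, the protein most often mutated in Diamond-Blackfan anaemia, read 13.60, 13.39 and 13.61 at the early stage, 13.63, 13.68 and 13.52 at progression, 13.72, 13.73 and 13.74 at the terminal stage and 13.87, 13.89, 13.84, 13.78 and 13.85 in wild-type spleen. Every fusion array lay below every wild-type array for both genes. The pooled differences were −0.22 ± 0.063 for Rps24 (adjusted p = 0.0166) and −0.22 ± 0.066 for Rps19 (adjusted p = 0.0196).

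Rps18, at the head of the small subunit, read 13.85, 13.79 and 13.79 at the early stage, 13.82, 13.77 and 13.83 at progression, 13.89, 13.87 and 13.89 at the terminal stage and 13.99, 14.05, 14.02, 13.99 and 14.02 in wild-type spleen. Rps7, another Diamond-Blackfan anaemia gene, read 13.94, 13.99 and 13.91 at the early stage, 13.93, 13.98 and 13.97 at progression, 13.82, 13.88 and 13.89 at the terminal stage and 14.06, 14.09, 14.10, 14.11 and 14.09 in wild-type spleen. Fusion and wild type were separated completely in both genes although the differences were small. They came to −0.18 ± 0.059 for Rps18 (adjusted p = 0.029) and −0.17 ± 0.059 for Rps7 (adjusted p = 0.0419). The residual SDs of Rps18 and Rps7 were 0.027 and 0.029, so these SEs rest mostly on the spread drawn from all genes. Rps20, also of the head, read 13.88, 13.83 and 13.89 at the early stage, 13.79, 13.98 and 13.92 at progression, 13.77, 13.75 and 13.89 at the terminal stage and 13.93, 14.04, 14.12, 14.08 and 14.10 in wild-type spleen. Its highest fusion value exceeded its lowest wild-type value, and the difference was −0.20 ± 0.067 (adjusted p = 0.0351).

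In the large subunit, Rpl13a, which also takes part in silencing inflammatory mRNAs, read 14.03, 14.04 and 13.93 at the early stage, 14.02, 14.04 and 14.04 at progression, 13.93, 13.92 and 14.03 at the terminal stage and 14.19, 14.20, 14.17, 14.18 and 14.18 in wild-type spleen. Its wild-type values spanned a narrow range above all fusion values, and the difference was −0.18 ± 0.061 (adjusted p = 0.0327). Rpl11 read 12.78, 12.42 and 12.79 at the early stage, 12.88, 12.94 and 12.79 at progression, 13.01, 12.96 and 12.91 at the terminal stage and 13.01, 13.17, 13.08, 12.97 and 13.10 in wild-type spleen. It was lowest at the early stage, and its terminal values overlapped wild type. The pooled difference was −0.23 ± 0.079 (adjusted p = 0.0356). Just outside the threshold lay Rpl19, another large subunit protein, at −0.16 ± 0.061 (adjusted p = 0.0536). Complete separation, every fusion array below every wild-type array, was seen for 8 members (16.7%) and for 6.66% of all genes.

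The number of calls changed when single arrays were left out. Without wild-type spleen 2 or without wild-type spleen 5 only 2 members were lower, 4 without wild-type spleen 3 or 4, and 5 without terminal spleen 1 or 2. Rpl22l1 kept its call in each of the 14 cases, and Rps19 in all but the one without wild-type spleen 2 (adjusted p = 0.0535). After a second quantile normalization 3 members were called (Rpl11, Rpl22l1 and Rps24), with arrays centred on their medians 1, without the arrays with signal of other tissues 2, and Rpl22l1 was among them each time. Tested among the 92 spleen genes at a level of 13 or more alone, a choice made after seeing the data, 18 of 32 members passed beside 65.2% of these genes, and the members' median was −0.09 beside −0.049 over all 92. The 92 genes include the 32 members, so these 2 sets are not separate.

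At the early stage Rpl11 and Rps19 were lower than in wild type. They differed by −0.40 ± 0.10 (adjusted p = 0.0164) and −0.31 ± 0.087 (adjusted p = 0.0243), a fold of 1.32 and 1.24 lower, and for both genes all 3 early arrays lay below all 5 wild-type arrays. Such separation was seen for 20 members (41.7%) and for 12.6% of all genes. Rpl11 and Rps19 were the only 2 of 48 members called, 4.17%, while 15.9% of all genes passed and 8.55% passed as lower. Nevertheless 43 members lay below 0, and the median was −0.12 against 0.034 over all genes. An unadjusted p under 0.05 was found for 13 of 48 members and for 3557 of 12394 genes, which are similar shares. Early spleen 2 held the lowest value of both genes, and without it 0 members passed, with Rpl11 at −0.28 (adjusted p = 0.0908) and Rps19 at −0.25 (adjusted p = 0.116). Rps19 also lost its call without wild-type spleen 2, 3 or 5 (adjusted p between 0.05 and 0.0536), and without the arrays with signal of other tissues no member passed.

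At progression no member passed, while 19.3% of all genes did. The members' median was −0.098 against 0.037, and 40 of 48 lay below 0. An unadjusted p under 0.05 was found for 6 of 48 members and for 4151 of 12394 genes. Rps27l read 12.62, 12.35 and 12.14 at progression and 11.89, 12.17, 12.08, 11.98 and 12.12 in wild-type spleen, with the last progression array within the wild-type range, and differed by 0.32 ± 0.11 (adjusted p = 0.0646). Rps19 and Rps18 differed by −0.24 ± 0.087 and −0.21 ± 0.077 (adjusted p = 0.0722 and 0.0722), with all 3 progression arrays below all wild-type arrays. Such separation was seen for 16 members (33.3%) and for 11.7% of all genes. Without progression spleen 3, and also without wild-type spleen 1, 2 members passed.

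At the terminal stage ribosomal protein genes moved both ways. Of 48 members 2 were higher, Rpl37 and Rpl7l1, and 7 were lower, Rpl27a, Rpl22l1, Rps4l, Rps24, Rps20, Rps7 and Rpl13a. That share of 18.8% stood beside 34.5% of all genes called, made up of 18.1% higher and 16.3% lower. All 3 terminal arrays lay below all wild-type arrays for 14 members (29.2%) and 18.2% of all genes. They lay above them for 3 members and 21.4% of all genes. The median over the members was −0.079 against 0.0365 over all genes, and 37 of 48 lay below 0. All 3 stages were set against the same 5 wild-type arrays, so their differences are given side by side only.

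Rpl37, a zinc-binding protein of the large subunit, rose most. Its probe set read 9.33, 9.18 and 9.35 at the terminal stage, 8.39, 8.45 and 8.10 at progression, 8.04, 8.09 and 7.73 at the early stage and 8.06, 8.39, 8.47, 8.12 and 8.39 in wild-type spleen. The 3 terminal arrays stood above all other 11. The difference from wild type was 1.00 ± 0.13 (adjusted p = 5.3e-05), 2-fold, against −0.33 ± 0.13 at the early stage and 0.029 ± 0.13 at progression. The terminal level also exceeded the early level by 1.33 ± 0.15 (adjusted p = 4.9e-05) and the progression level by 0.97 ± 0.15 (adjusted p = 0.00132).

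Rpl7l1, a relative of Rpl7 that acts in ribosome assembly, read 9.85, 9.85 and 9.81 at the terminal stage and 9.45, 9.53, 9.37, 9.36 and 9.39 in wild-type spleen. The terminal values were close together and above all others, since early spleen read 9.34, 9.18 and 9.57 and progression spleen 9.54, 9.60 and 9.39. It rose by 0.41 ± 0.10 (adjusted p = 0.0059). Against the early stage it was higher by 0.47 ± 0.11 (adjusted p = 0.0274), a call lost without early spleen 1, early spleen 2 or any of the terminal arrays (adjusted p between 0.0537 and 0.143).

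Rpl27a, a large subunit protein, showed the largest fall among the members called apart from the dim Rps4l. It read 7.94, 7.63 and 7.72 at the terminal stage and 8.15, 8.55, 8.45, 8.46 and 8.25 in wild-type spleen, without overlap, while the 7.99, 8.26 and 8.49 of the early stage and the 8.15, 8.06 and 8.51 of progression overlapped wild type. The terminal difference was −0.61 ± 0.15 (adjusted p = 0.00488), a fold of 1.52 lower. Rpl22l1 differed by −0.51 ± 0.13 (adjusted p = 0.00829) with wild-type spleen 1, the control nearest in treatment time, inside the terminal range, and by −0.62 (adjusted p = 0.000249) without that array. Rps24 differed by −0.27 ± 0.082 (adjusted p = 0.0191), Rps20 by −0.25 ± 0.088 (0.0375), Rps7 by −0.23 ± 0.078 (0.0349) and Rpl13a by −0.22 ± 0.079 (0.0453). The dim Rps4l read 4.61, 6.37 and 5.13 at the terminal stage and 6.02, 6.77, 6.37, 6.38 and 6.10 in wild-type spleen, with overlap and a difference of −0.96 ± 0.35 (adjusted p = 0.0496). Wild-type spleen 1 held the lowest wild-type value of each of these members called lower except Rpl13a. It also held the lowest wild-type value of Rpl37, called higher, but not that of Rpl7l1.

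Rpl37, Rpl7l1, Rpl27a and Rpl22l1 kept their terminal call whichever single array was left out. Rps24 lost it without terminal spleen 1 (adjusted p = 0.059) or terminal spleen 2 (adjusted p = 0.0728). Rpl13a lost it without any of the 8 arrays compared (adjusted p between 0.0501 and 0.139), Rps20 in all but 2 of these cases (up to 0.127), and Rps7 and Rps4l in all but 1 (up to 0.121 and 0.267). Without terminal spleen 1 only 4 members passed, and 5 without terminal spleen 2 or without wild-type spleen 2, 4 or 5. After a second quantile normalization, and also with arrays centred, 5 passed (Rpl37, Rpl7l1, Rpl27a, Rpl22l1 and Rps24), and Rpl27a, Rpl13a and Rps20 lost their call when the mean of a gene's probe sets was used. With Xist class as a covariate 3 passed, Rpl37, Rpl7l1 and Rpl27a, and Xist was high on all 3 terminal arrays.

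**Figure D2:**
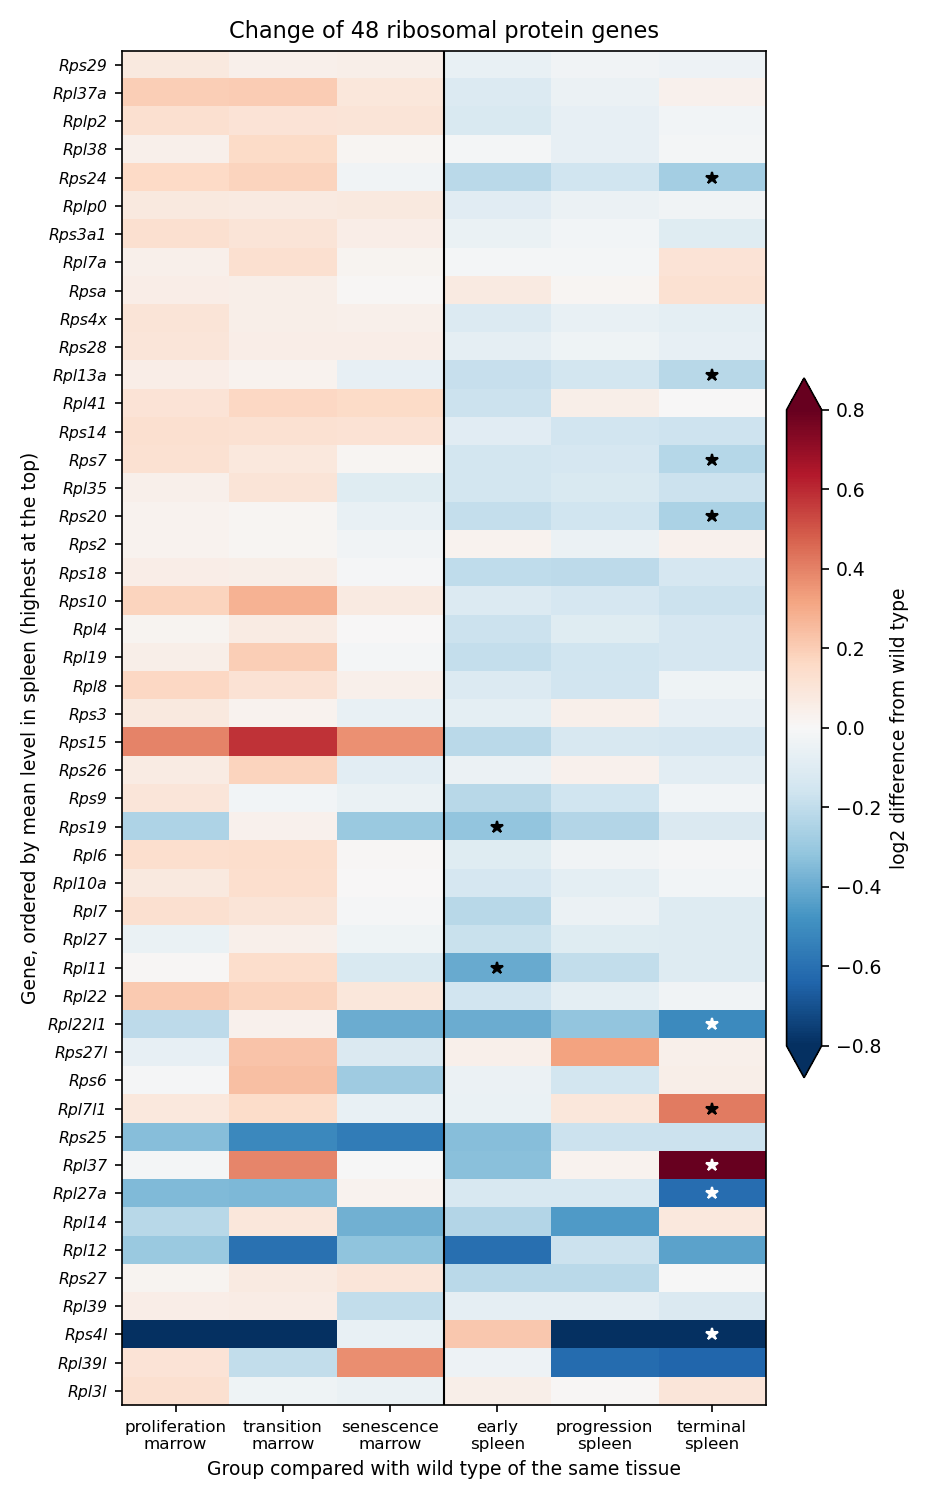
Log2 difference from wild type of the same tissue for each of the 48 ribosomal protein genes (rows, ordered by mean spleen level) in the 3 marrow states and 3 spleen stages (columns), blue lower and red higher, with a star where the adjusted p was under 0.05. No marrow column holds a star, the early spleen column holds 2 and the terminal spleen column 9, and most spleen cells are pale blue.

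**Figure D3:**
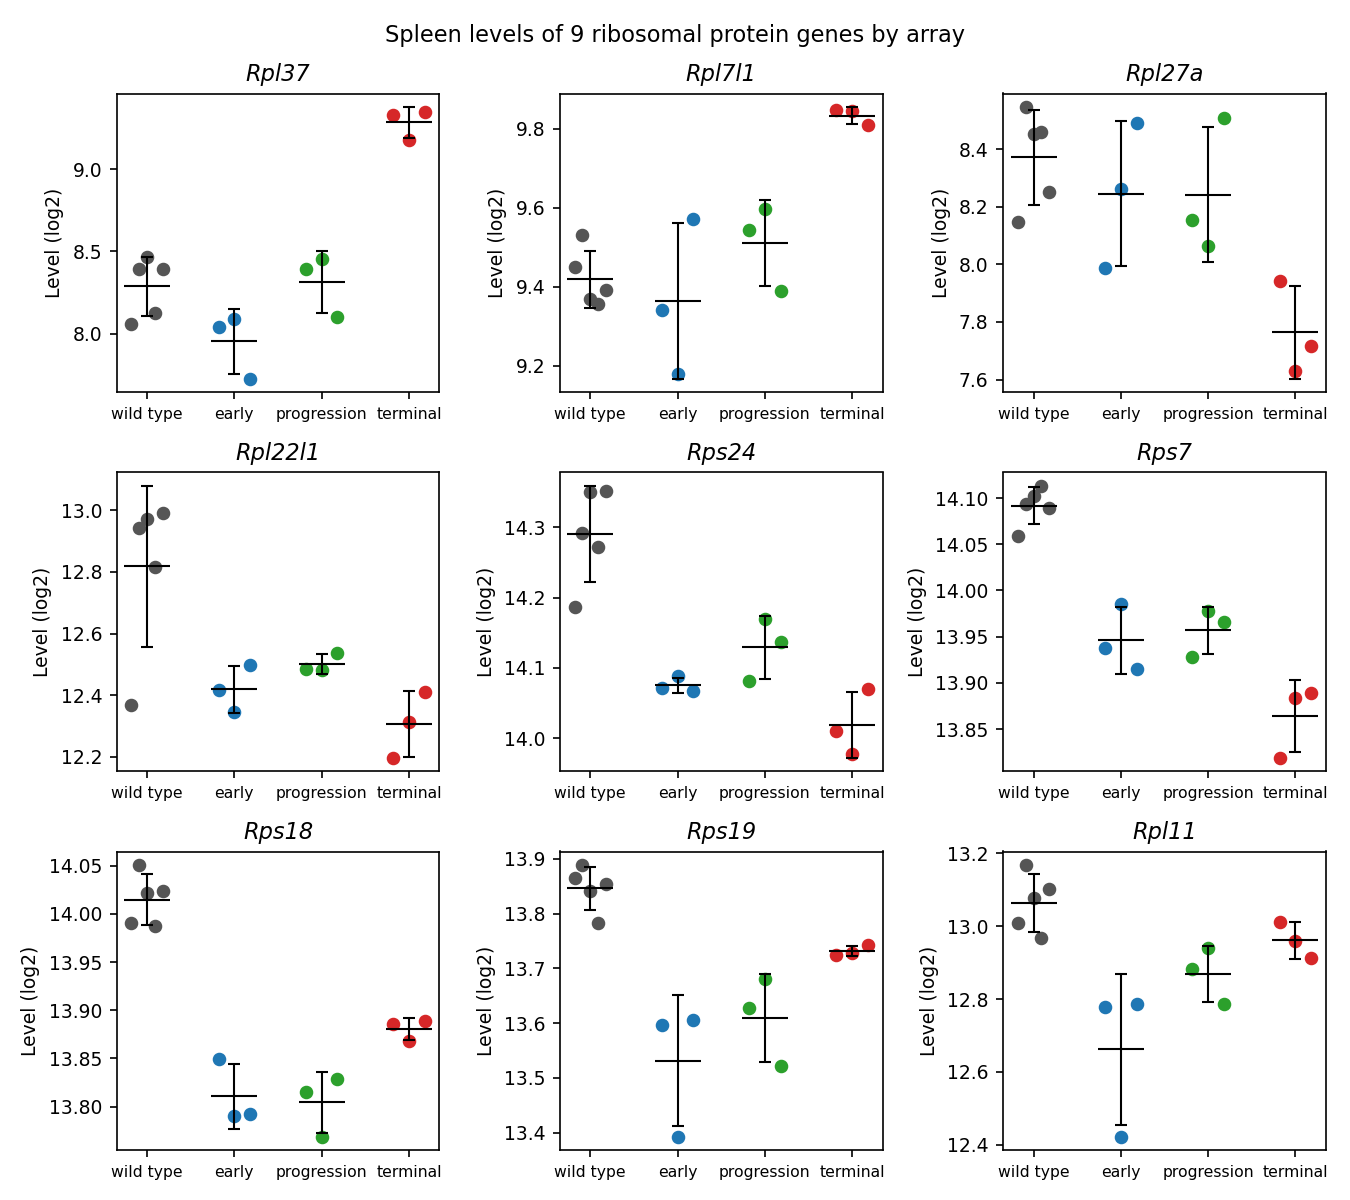
Log2 level of 9 ribosomal protein genes on every spleen array by group, with bars for the mean and whiskers for the SD (n = 5 wild type, 3 in each fusion group), each panel on its own scale that does not start at 0. Rpl37 and Rpl7l1 stand apart upward at the terminal stage only, Rpl11 is lowest at the early stage, and in Rps24, Rps7, Rps18 and Rps19 all fusion arrays lie below all wild-type arrays.

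By role, most changes of both subunits lay below 0 at each stage in the deposited values. At the early stage 20 of 20 large subunit genes (median −0.16) and 18 of 20 small subunit genes (median −0.11) lay below 0. At progression these were 18 of 20 (median −0.088) and 17 of 20 (median −0.13), and at the terminal stage 15 of 20 (median −0.068) and 17 of 20 (median −0.089). The stalk genes Rplp0 and Rplp2 lay below 0 at every stage, between −0.12 and −0.022, and neither passed. Of the 6 relatives 3 lay below 0 at each stage. The lean of the members depended on the scaling. After a second quantile normalization 39 of 48 members lay below 0 at the early stage and 28 at the terminal stage. With arrays centred on their medians 30 lay below 0 at progression.

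Other well-known members did not pass the test. Rps6, the substrate of the S6 kinases in the small subunit, read 9.59, 9.63 and 9.77 in terminal and 9.55, 9.68, 9.55, 9.63 and 9.67 in wild-type spleen. Its values overlapped, and the changes were −0.049 ± 0.10, −0.15 ± 0.10 and 0.047 ± 0.10 at the 3 stages in turn. Rpl38, a large subunit protein needed for the translation of Hox mRNAs, changed by −0.017 ± 0.087, −0.065 ± 0.087 and −0.013 ± 0.087. Rps4x changed by −0.11 ± 0.083, −0.057 ± 0.083 and −0.076 ± 0.083. Rpl39l, a testis-enriched relative of Rpl39, read 4.30, 4.49 and 4.25 in terminal and 4.22, 4.79, 4.71, 6.09 and 5.10 in wild-type spleen, near the lower quartile of the arrays, with overlap and a change of −0.63 ± 0.35 (adjusted p = 0.181). Rpl39 changed by −0.12 ± 0.10, and the adjusted p of Rps6, Rpl38, Rps4x and Rpl39 was above the threshold at every stage.

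Between the spleen stages few members moved. In progression against early spleen 0 of 48 members and 0% of genes passed, with 3 members and 910 of 12394 genes at an unadjusted p under 0.05. In terminal against progression spleen Rpl37 was the only member called, while 5.86% of genes passed and 2.56% passed as higher. In terminal against early spleen Rpl37 and Rpl7l1 were called, both higher, while 6.61% of genes passed and 2.73% passed as higher. Rpl11, lowest at the early stage, was higher at the terminal stage by 0.30 ± 0.12 (adjusted p = 0.13), and Rps19 by 0.20 ± 0.10 (adjusted p = 0.224), neither past the threshold.

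Other probe sets of the same genes did not always follow the one chosen. Counting every probe set that carries a ribosomal protein symbol gave 202, of which 100 had a single symbol and 102 were shared with pseudogenes or paralogues, and 27 of the 75 genes were read only by shared ones. Fitted among all 22690 probe sets, 46 of the 202 were lower and 4 higher in fusion spleen as a whole, beside 28.9% of all probe sets called. At the terminal stage 38 were lower and 9 higher, beside 31.7%, and in pooled marrow 0 passed, beside 0.494%. Of the 123 at a level of 13 or more in spleen, 105 lay below 0 in the pooled comparison, with 31 called lower and 0 higher. The share of all probe sets at that level was not taken. Of the 92 genes at that level, 32 of them members, 65.2% passed in either direction when tested alone, with a median change of −0.049. Among the 23 members with several single-symbol probe sets, those of 16 genes all changed in the same direction at the terminal stage and those of 7 did not. In Rpl37a and Rps9, of the large and small subunit, 1 probe set was called higher and another lower.

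The rise of Rpl37 came from a probe set of moderate level, with a mean of 8.43 in spleen. A bright set shared with Rpl37rt, at a mean of 14.02, read 14.01, 14.02 and 14.06 at the terminal stage and 14.06, 14.02, 14.00, 14.01 and 14.06 in wild-type spleen, a difference of −0.0024 ± 0.085. A further shared set, at a mean of 13.43, changed by −0.47 ± 0.14 (adjusted p = 0.0211). The probe sets of Rpl37 thus moved in different directions. For Rpl27a the chosen set had a mean level of 8.19, and a bright set at a mean of 13.78, shared with other symbols, changed by −0.019 ± 0.082. The second set of Rpl7l1 rose as well, by 0.34 ± 0.094 (adjusted p = 0.0139).

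Rps24 was read by 6 single-symbol probe sets with terminal changes from −1.93 to 0.12, a range of 2.04 that was the widest among the members. The set at a mean of 12.42 read 12.07, 11.08 and 11.81 at the terminal stage and 12.37, 12.89, 13.15, 12.81 and 12.98 in wild-type spleen, a difference of −1.19 ± 0.21 (adjusted p = 0.000595). The set at a mean of 6.39 read 4.94, 4.83 and 5.41 at the terminal stage and 7.42, 6.98, 6.68, 7.25 and 6.61 in wild-type spleen, a difference of −1.93 ± 0.30 (adjusted p = 0.000286). In both the terminal arrays lay below all wild-type arrays, while the chosen set differed by −0.27 ± 0.082. The 3 brightest sets and these were all called lower, and only the dimmest, at a mean of 4.42, was not. Rps24 mRNA is known to be spliced to alternative 3′ ends, and which ends each set reads was not determined here.

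Among probe sets at a level of 13 or more, the largest terminal fall was that of Rps27, a zinc-binding small subunit protein, in a set shared with Rps27rt and so outside the rule for members. The shared set read 13.93, 13.99 and 13.94 at the early stage, 13.61, 13.63 and 14.10 at progression, 13.68, 13.46 and 13.81 at the terminal stage and 14.22, 14.46, 14.49, 14.47 and 14.49 in wild-type spleen. Every fusion array lay below every wild-type array. It changed by −0.47 ± 0.13, −0.65 ± 0.13 and −0.78 ± 0.13 in turn (adjusted p = 0.025, 0.00335 and 0.000381 over all probe sets). The single-symbol set of Rps27, at a mean of 7.06, changed by −0.0015 ± 0.13 at the terminal stage. Rpl22 also differed by set, with −0.027 ± 0.11 for the chosen set and −0.95 ± 0.15 (adjusted p = 0.000264) for a second set of lower level.

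**Figure D4:**
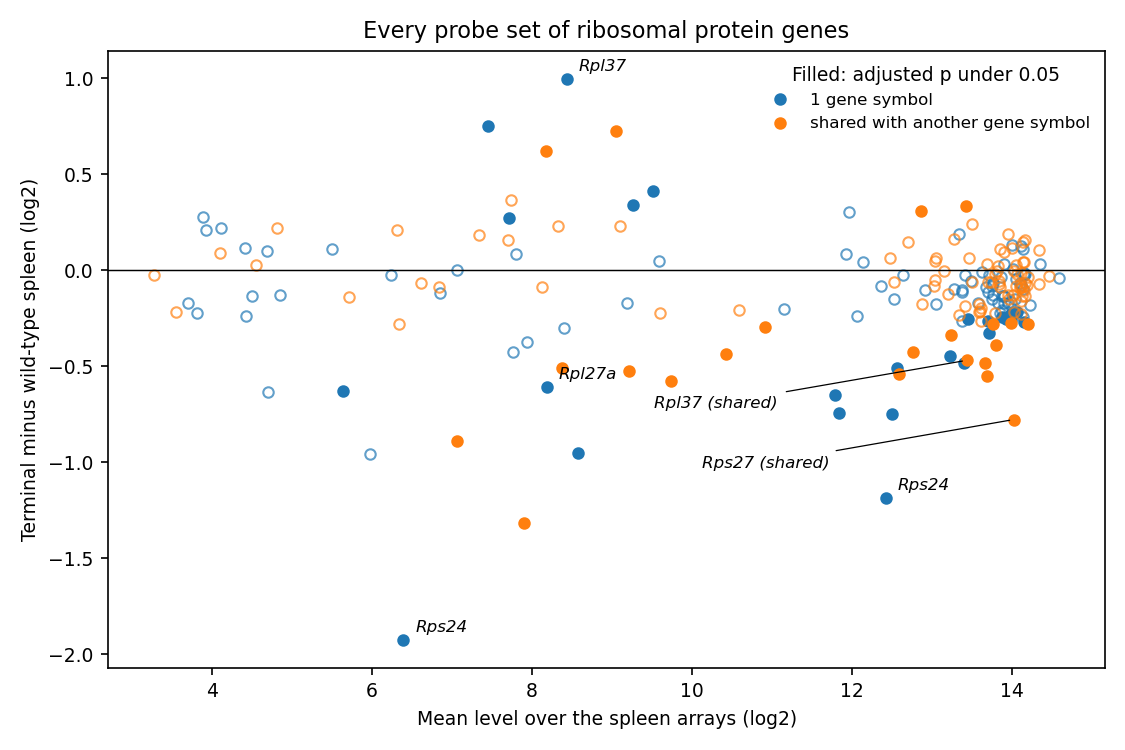
Terminal minus wild-type log2 difference (y) against the mean spleen level (x) for the 202 probe sets with a ribosomal protein symbol, blue where it is the only symbol and orange where the set is shared, filled where the adjusted p was under 0.05. At levels of 13 or more 98 of 123 sets lie below 0 and 1 filled point lies above it, while the chosen Rpl37 set and the widest Rps24 differences lie at lower levels. The share of all probe sets at that level is not shown. Among the 92 genes at that level, 32 of them members, 67.4% passed at the terminal stage when tested alone, with a median of −0.030.

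Gene lists that act with the ribosomal proteins were read in the same fits. Of 48 ribosome biogenesis factors measured, which build the subunits in the nucleolus, 0 passed at the early stage and at progression, where 7 and 11 had an unadjusted p under 0.05, and at the terminal stage 23 were higher and 0 lower with a median of 0.39. At the 3 stages in turn 7.35%, 9.29% and 18.1% of all genes were higher and 8.55%, 9.96% and 16.3% lower. At an unadjusted p under 0.05 all genes numbered 3557 of 12394 at the early stage and 4151 at progression. Wdr12 and Ebna1bp2, which process the large subunit RNA, rose by 0.68 ± 0.11 (adjusted p = 0.000391) and 0.69 ± 0.14 (adjusted p = 0.0013). Nolc1, a nucleolar chaperone, rose by 1.14 ± 0.22 (adjusted p = 0.000964). Of 17 translation factors whose mRNAs also carry TOP sequences, 2 were lower at the early stage, 2 at progression, and 1 was higher and 1 lower at the terminal stage. Eif4a2, an initiation helicase, changed by −0.67 ± 0.12, −0.61 ± 0.12 and −0.82 ± 0.12 at the 3 stages in turn (adjusted p = 0.00174, 0.00252 and 0.000119). Of 16 mTOR and TOP regulators 3, 3 and 5 were higher and 1, 1 and 1 lower, with Mlst8, a subunit of the mTOR complexes, up by 0.98 ± 0.16, 0.91 ± 0.16 and 1.14 ± 0.16, and Myc up by 0.43 ± 0.13 (adjusted p = 0.0178) at the terminal stage. Fau, a small subunit protein outside the naming rule, changed by −0.15 ± 0.063 (adjusted p = 0.078) over the pooled fusion spleens. In marrow 0 genes of these lists passed in any state by limma, with 2, 6 and 2 at an unadjusted p under 0.05 in proliferation, transition and senescence. These were out of 82 measured, beside 1227, 1296 and 788 of all 12394 genes.

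**Figure D5:**
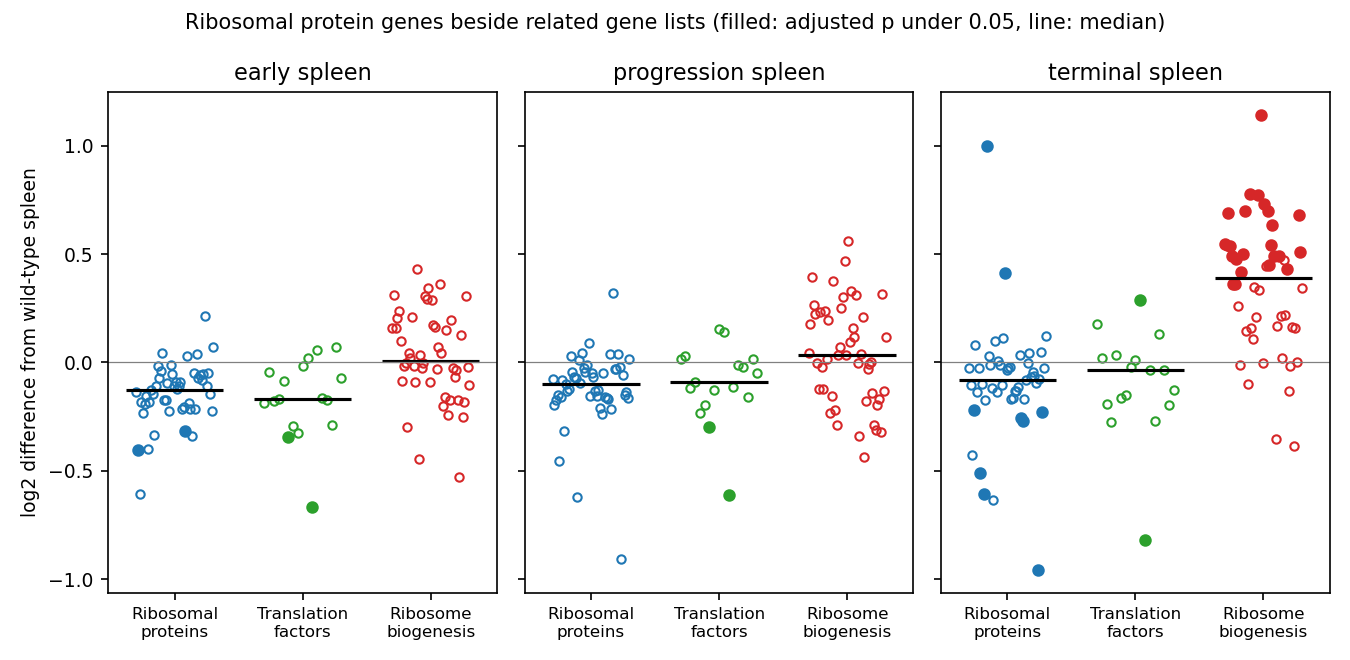
Log2 difference from wild-type spleen of each gene of 3 groups (48 ribosomal proteins, 17 translation factors and 48 ribosome biogenesis factors) at the 3 spleen stages, filled where the adjusted p was under 0.05 and with a line at the median. At the terminal stage the biogenesis factors centre on 0.39 with 23 filled points, while the ribosomal proteins centre on −0.079.

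Markers of cell types moved with the same spleen groups. Of 13 B cell markers 10, 12 and 12 were lower and 0, 1 and 0 higher at the 3 stages in turn. The mean level of the list against the wild-type mean ran from −2.13 to −1.03, from −2.66 to −0.99 and from −3.82 to −2.29, beside −0.18 to 0.17 in wild type. Of 10 T and NK cell markers 8, 8 and 9 were lower and 0, 0 and 1 higher. All 6 immature granulocyte markers were higher at every stage, between 2.61 and 4.23 above the wild-type mean beside −0.51 to 0.73 in wild type. Of 11 mature neutrophil markers 9, 10 and 11 were higher, between 0.78 and 2.13 above the wild-type mean beside −0.37 to 0.34 in wild type. Of 13 monocyte and macrophage markers 10, 6 and 9 were lower and 2, 2 and 2 higher. Of 18 cell division genes 5, 7 and 7 were higher and 0, 0 and 2 lower, and the list's mean lay between 0.11 and 0.51 above the wild-type mean beside −0.24 to 0.14. Of 5 plasma cell markers 1, 3 and 3 were lower, and of 7 megakaryocyte and platelet markers 0, 0 and 2. Erythroid markers were not called at the first 2 stages, and 11 of 12 were lower at the terminal stage, between −2.03 and −1.44 beside −0.14 to 0.09. The part of these shifts in the changes of ribosomal protein genes was not tested. In marrow, where no member was called, 6, 5 and 0 of 13 B cell markers were lower in the 3 states.

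The difference between the fusion's effect in marrow and in spleen passed for no member, while 14% of all genes passed. For this contrast each gene was read in both tissues from the 1 probe set brightest over all 29 arrays, which for 10 of the 48 members was not the set used above in one of the tissues. Its median over the members was 0.14 (marrow minus spleen) against −0.029 over all genes, and 39 of 48 members lay above 0. An unadjusted p under 0.05 was found for 5 of 48 members and for 3245 of 12394 genes. The smallest p-values were those of the small subunit genes Rps9, at 0.35 ± 0.13 (adjusted p = 0.0714), Rps7, at 0.24 ± 0.10 (adjusted p = 0.11), and Rps14, at 0.26 ± 0.11 (adjusted p = 0.123). The set of Rps9 changed by 0.21 ± 0.11 in marrow and −0.14 ± 0.068 in spleen. The set of Rps9 used above for marrow changed there by 0.0065 ± 0.085, and in spleen by −0.50 ± 0.17. Rps14 was likewise read from another set in marrow. Without transition marrow 1, senescence marrow 2, wild-type marrow 2 or wild-type marrow 4, 1 member passed. No single member was thus shown to differ between the tissues in its response.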

How the data were processed

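The authors deposited log2 probe set values for 29 arrays (15 marrow, 14 spleen), for which the submitters' processing notes name RMA, limma and affy. Versions, settings and genome build are not given in the sources used here. Arrays have no read depth, and their number limits the precision.

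Of the probe sets, 20393 had 1 gene symbol in the platform annotation, 691 several and 1606 none listed. A gene was its brightest single-symbol probe set in the tissue (over all arrays for the contrast between tissues), with no filter on level. One 4-group model per tissue, and 1 of 8 groups for the contrast between tissues, was fitted with limma 3.58.1 (lmFit, eBayes) in R 4.3.3 and adjusted by Benjamini-Hochberg over 12394 genes, with a threshold of 0.05. Tests are two-sided and changes are log2 differences ± SE, where eBayes has drawn the spread of each gene towards that of all genes. The scripts were tested on simulated data. Promoter windows came from RefSeq (GRCm38.p6).

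Members, gene lists and alternatives were chosen with earlier results of these data known. Named were up to 6 called members per direction and comparison with wild type (3 between fusion groups), the 3 smallest p-values where none passed, a list of well-known members, and up to 4 called genes per other list. The further probe sets, and Rps7 and Rpl19 in the pooled spleen contrast, were named after their values were seen.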

Additional observations from a re-analysis of the deposited data

Results flagged for a closer look

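Arrays far from the rest of their group were sought in 52 groups of 12 genes, of which chance marks about 1 in 20. Proliferation marrow 1, the array with adipocyte and muscle transcripts, was the lowest of its group for Rpl13a at 14.70 (nearest other array 14.88), for Rps7 at 14.76 (nearest 14.96) and for Rps18 at 14.59 (nearest 14.74). Transition marrow 2 read 6.68 for Rps4l, whose next array in the group read 5.98. Wild-type spleen 1, from the mouse treated for 24 months, read 12.37 for Rpl22l1, whose next wild-type array read 12.81.

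Levels differed between stages of fusion spleen for 2 members. The stages also differ in time on tamoxifen, and the 2 cannot be told apart here. For Rpl37 the terminal stage exceeded the early stage by 1.33 (SE 0.15) and progression by 0.97 (SE 0.15). This was read from the set at a mean of 8.43. The bright set shared with Rpl37rt read 14.01, 14.02 and 14.06 at the terminal stage and 13.98, 13.97 and 13.88 at the early stage. For Rpl7l1 the terminal stage exceeded the early stage by 0.47 (SE 0.11), a call lost in 11 of 18 alternative settings.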

How the results depend on the processing

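Counts of members called in spleen moved with most choices, and no member called in a spleen comparison reversed its direction there. The other named members were not followed through these choices. For fusion spleen as a whole the main count of 8 became 3 with a second quantile normalization (median −0.057), 1 with arrays centred (median −0.077), 13 with trend and robust options (32.2% of all genes), 21 with array weights (51.3%), 2 without arrays with signal of other tissues and 18 among genes at a level of 13 or more (65.2% of those genes). At the early stage the count of 2 became 1 with centring, 5 with the mean of all probe sets, 9 with trend and robust options (15.9% of all genes), 21 with array weights (46%), 0 without arrays of mixed signal and 17 at 13 or more (44.6%), and the median was −0.092 with quantile normalization. At progression the count of 0 became 1 with centring (median −0.033), without _x and _s probe sets, with Gapdh or Xist as a covariate or with only the groups compared, 3 above the median level, with trend or with weights, and 11 at 13 or more (38%). At the terminal stage the count of 9 became 5 with quantile normalization (median −0.031), with centring or without arrays of mixed signal, 3 with Xist class and 15 at 13 or more (67.4%), and the median was −0.11 with the mean of probe sets. In terminal against progression it became 2 with quantile normalization or Gapdh and 3 with the mean of probe sets, and the median was −0.046 with centring. In terminal against early it became 1 with Gapdh, Xist, only the groups compared or without arrays of mixed signal and 4 at 13 or more (25%), and the median was 0.018 with weights. The median in progression against early was 0.081 with centring. In the contrast between tissues the count became 3 with weights (37%) and 2 at 13 or more (24%), and in pooled marrow 1 with weights (15.1%). Leaving out 1 array at a time gave 2 to 10 members for all fusion spleen, 0 to 3 early, 0 to 2 at progression, 4 to 7 terminal, 1 to 2 in terminal against early and 0 to 1 between tissues. The labels do not say what a replicate number marks, and same-numbered arrays of different groups deviated together in some pairs only (correlations −0.43 to 0.55 in marrow and −0.32 to 0.23 in spleen, over 0.1 in 10 of 21 and 5 of 18 pairs, best with the own number for 2 of 15 and 4 of 14 arrays), so the numbers were not taken as pairs. In marrow the members' median was lowest on the arrays numbered 1 and highest on those numbered 3 in all 4 groups, which no longer held in all 4 after a second quantile normalization. Each senescence array lay above the wild-type array of its number (13.94 and 13.89, 14.13 and 14.07, 14.28 and 14.24). With the replicate block 0 members passed in every marrow comparison, with medians of 0.061, 0.086 and −0.0014 in proliferation, transition and senescence, and the counts in spleen were 0 for all fusion spleen, 0 early, 2 terminal (Rpl37 and Rpl27a) and 1 in terminal against early. The cause of these shifts was not tested. The filter at 13 and the fits of single probe sets were added after seeing the data. Most members read near the top of the scale, where a difference may be compressed, and the bright shared probe sets lie outside the member rule.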
